A study of Mus musculus with 4 samples.

Results

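The genes described here are Trp53, which encodes the transcription factor p53, and 9 genes of its response: Mdm2, Ccng1, Btg2, Gdf15, Ei24, Pmaip1, Bbc3, Bax and Perp. They were taken by symbol from GENCODE vM21 (GRCm38), and all 10 were found among the 55421 gene identifiers of the count table. All 10 also passed the filter on low counts, as did 14427 genes in all. Messenger RNA was measured in E14 mouse embryonic stem cells, a line from the blastocyst of a mouse of 129/Ola background, grown with serum and LIF on gelatin. Cells without the miR-290-295 cluster of microRNAs (KO, 2 libraries) were compared with wild-type cells of the same line (WT, 2 libraries), and neither group received a further treatment per the labels. The design text names the libraries biological duplicates. Nothing in the labels tells 1 KO clone from several, so each p-value measures the spread between these libraries, which may be technical.

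The p53 protein is held at a low level by MDM2, a ubiquitin ligase that marks it for degradation, and Mdm2 is itself switched on by p53, which closes a feedback loop. When DNA is damaged or growth signals are abnormal, p53 accumulates and activates genes that halt the cell cycle or start cell death through the BCL2 family. Embryonic stem cells express p53 at a high level and are known to die readily after damage. The microRNAs of the cluster carry a seed that is known to act on genes of the G1 to S transition and of cell death, among them the p53 targets Ei24 and Cdkn1a. As p53 is regulated mainly through its protein, a level of Trp53 RNA does not give the activity of p53.

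Levels are given as CPM, the counts of a gene scaled to the total of its library. Each read of these libraries is a tag near the 3' end of a transcript, so a level does not grow with transcript length. Fold changes are KO over WT on the log2 scale, with a standard error (SE) and a Benjamini-Hochberg adjusted p from edgeR's quasi-likelihood test over all tested genes. A gene was called at an adjusted p below 0.05.

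Loss of the cluster was accompanied by changes in opposite directions among the 10 genes. Gdf15 and Ei24 rose, Pmaip1 and Btg2 fell, and the other 6 did not pass the test. Of all tested genes 7.42% were called higher in KO and 4.96% lower, 12.4% in all, against 4 of these 10. The 2 KO libraries lay above both WT libraries for 3 of the 10 genes and below them for 5, where 29.2% and 28.8% of all tested genes did so. The median log2 fold change was -0.48 for the 10 genes and -0.01 for all tested genes. Much of that median rested on 1 library: it was -0.08 without WT library 1 and -0.77 without WT library 2. In bulk RNA, fewer cells that express a gene and less RNA per cell cannot be told apart.

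The libraries held between 9925557 and 12726123 counts, and the 7 microRNA genes of the cluster on the plus strand held 88 and 39 counts in WT and 0 in each KO library. All 10 markers of embryonic stem cells were present, with a summed level of 3822 and 4221 CPM in WT and 3845 and 3946 in KO. The sum does not show single markers: 1, Fgf4, was higher in KO (log2 fold change 0.80), and 2, Klf4 (-1.59) and Utf1 (-0.91), were lower. Markers of primitive endoderm, the extraembryonic layer next to the epiblast, differed between the groups: 6 of 8 were lower in KO, and their sum was 165 and 182 CPM in WT and 23.5 and 25.5 in KO. Of the 8 fibroblast or feeder markers 2 were lower, and Col3a1 and Dcn were at 0 in all libraries. The sum was 232 and 242 CPM in WT and 262 and 351 in KO, of which Vim made up 190 to 202 CPM in WT and 252 to 331 in KO. Of the 8 trophoblast markers 1 was higher and 1 lower, and the sum was 108 and 119 CPM in WT and 248 and 397 in KO, of which Tfap2c made up 88.1 to 89.7 CPM in WT and 230 to 379 in KO. Mitochondrial genes took 5.58% and 6.02% of counts in WT and 4.93% and 5.08% in KO. The part of these differences in the results below was not tested.

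**Figure D1:**
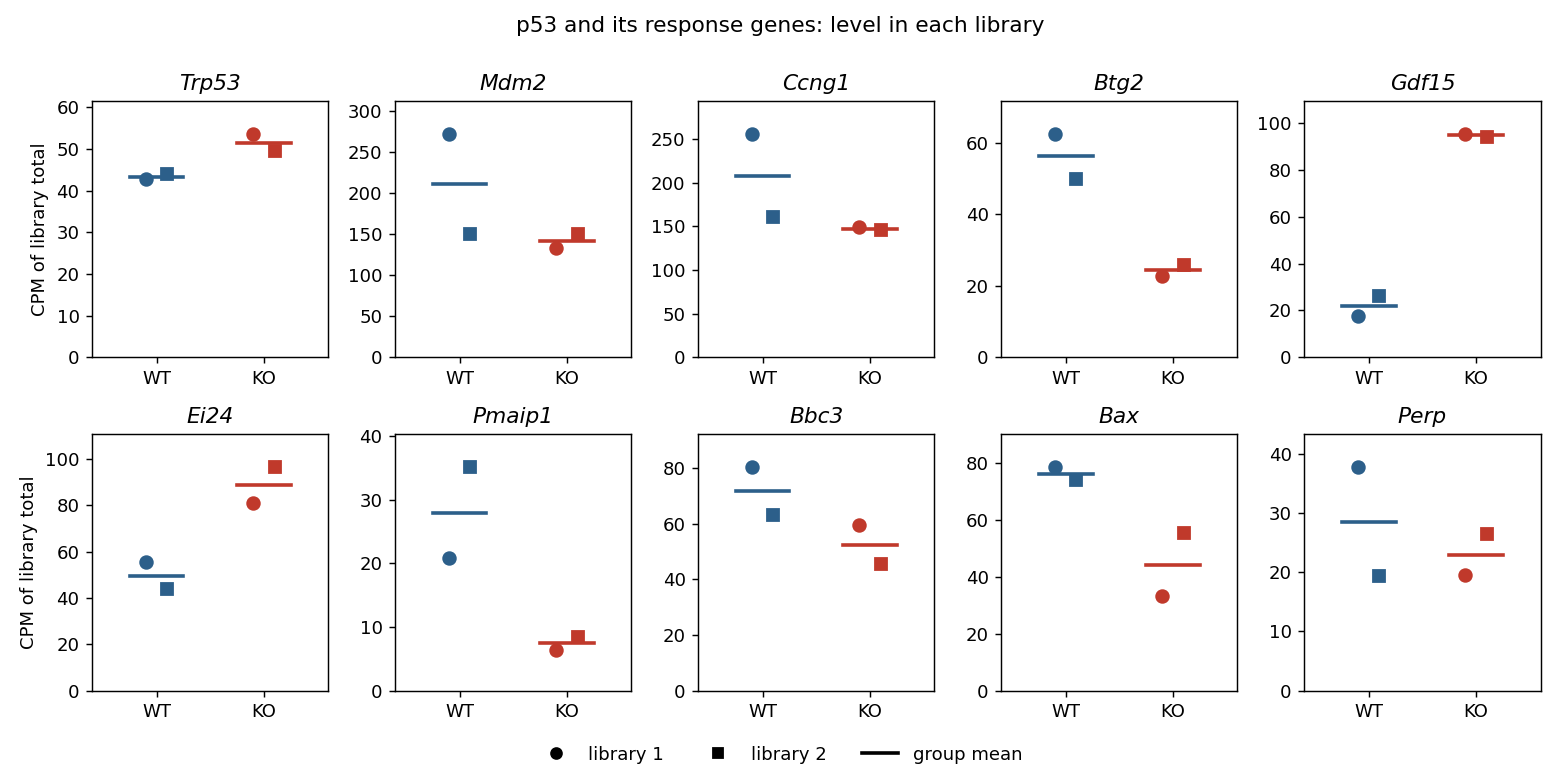
Level of each of the 10 genes (vertical axis, CPM of library total, from 0) in the 2 WT and the 2 KO libraries; circles are library 1, squares library 2 and lines group means. The called genes Gdf15, Ei24, Pmaip1 and Btg2 separate by group, as do Trp53, Ccng1, Bbc3 and Bax, which were not called. For Mdm2, Ccng1 and Perp WT library 1 stands above the other 3 libraries.

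Trp53 itself (ENSMUSG00000059552, chromosome 11, 69580359 to 69591873, plus strand) was measured at 42.7 and 43.9 CPM in WT libraries 1 and 2 and at 53.6 and 49.5 CPM in KO libraries 1 and 2. The KO libraries were both a little higher, and the groups did not overlap. The log2 fold change was 0.25 (SE 0.18, edgeR adjusted p = 0.39), which did not pass the test, and it lay between 0.20 and 0.31 with any 1 library left out.

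Mdm2 (ENSMUSG00000020184, chromosome 10, 117688875 to 117710758, minus strand), the negative regulator and target of p53, was at 271.8 and 149.9 CPM in WT libraries 1 and 2 and at 133.6 and 150.6 CPM in KO libraries 1 and 2. WT library 2 thus lay within the range of the KO libraries, and WT library 1 stood above all 3. KO over WT gave -0.57 (SE 0.25, edgeR adjusted p = 0.174). Leaving out WT library 1 brought this to -0.06. Leaving out WT library 2 brought it to -0.95, which passed the test (edgeR adjusted p = 0.000508). With no filter on low counts the value was the same and passed as well (edgeR adjusted p = 0.012), although the WT libraries lay 1.86-fold apart. The size of the difference depended on which WT library served as the reference.

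Ccng1 (ENSMUSG00000020326, chromosome 11, 40748552 to 40755311, minus strand), which encodes cyclin G1, a regulator of MDM2 through the phosphatase PP2A, was likewise highest in WT library 1. Its level was 255.7 and 160.3 CPM in WT libraries 1 and 2, against 148.7 and 145.8 CPM in the KO libraries. The groups did not overlap, yet WT library 2 was much closer to the KO libraries than to WT library 1. The difference of -0.50 (SE 0.22, edgeR adjusted p = 0.165) did not pass the test. Leaving out WT library 1 brought it to -0.10, and leaving out WT library 2 to -0.82 (edgeR adjusted p = 0.00154). With no filter on low counts it was called (edgeR adjusted p = 0.0375), although the WT libraries lay 1.64-fold apart.

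Btg2 (ENSMUSG00000020423, chromosome 1, 134075170 to 134079120, minus strand) encodes an antiproliferative protein that recruits the CCR4-NOT deadenylase. It was at 62.5 and 49.97 CPM in WT libraries 1 and 2 and at 22.8 and 25.9 CPM in KO libraries 1 and 2. Both KO libraries were far below both WT libraries. Btg2 fell by 1.21 on the log2 scale (SE 0.21, edgeR adjusted p = 0.00731), which is 2.31-fold lower, and its call held with each library left out (-1.38 to -1.02). The tested genes of chromosome 1 had a median log2 fold change of 0.27, and relative to that median Btg2 was at -1.48.

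Gdf15 (ENSMUSG00000038508, chromosome 8, 70629393 to 70632456, minus strand) encodes a secreted cytokine of the TGF-beta superfamily that is induced by p53 and also by the integrated stress response. It was at 17.8 and 26.0 CPM in WT libraries 1 and 2 and at 95.4 and 94.3 CPM in KO libraries 1 and 2. The KO libraries were almost equal and well above the WT libraries. Gdf15 rose by 2.12 (SE 0.21, edgeR adjusted p = 0.000574), which is 4.36-fold and the largest change of the 10 genes. It lay between 1.88 and 2.40 with 1 library left out and was called each time.

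Ei24 (ENSMUSG00000062762, chromosome 9, 36779159 to 36797393, minus strand) encodes a membrane protein of the endoplasmic reticulum that was first found as a p53-induced gene. It was at 55.4 and 44.0 CPM in WT libraries 1 and 2 and at 81.2 and 96.4 CPM in KO libraries 1 and 2. Both KO libraries were above both WT libraries. Ei24 rose by 0.83 (SE 0.19, edgeR adjusted p = 0.0232), which is 1.78-fold. The call was lost without KO library 2 (0.71, edgeR adjusted p = 0.17).

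Ei24 and Ccng1 were the 2 of the 10 genes whose longest annotated 3' UTR holds a match of 7 bases to the seed of the cluster. The motifs were searched on the transcript strand only, and they share 6 bases and so can overlap. AGCACTT pairs with bases 2 to 8 of the most common seed of the cluster. GGCACTT pairs with the same bases of miR-290a-3p. The third motif, GCACTTA, pairs with bases 2 to 7 and carries an A opposite the first base. Of 12491 tested genes with a 3' UTR, of all lengths, 25.8% hold at least 1 of these motifs. Mature microRNAs of the cluster with their seed (bases 2 to 8) in capitals are shown first, because AGCACTT is the reverse complement of the seed that 3 of them share. A sequence was found for 6, so the microRNAs shown are not the whole cluster, which has 7 genes on the plus strand. The microRNAs are from RefSeq (GRCm38.p6, chromosome 7, plus strand), and the matches from GENCODE transcripts (GRCm38, the sense strand of the gene), with the matching bases in capitals.

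miR-291a-3p: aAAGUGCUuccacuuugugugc
miR-294-3p: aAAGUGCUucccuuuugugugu
miR-295-3p: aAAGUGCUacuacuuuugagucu
miR-290a-3p: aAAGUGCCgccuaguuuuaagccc
miR-291b-3p: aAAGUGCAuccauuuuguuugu
miR-293-3p: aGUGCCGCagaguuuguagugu
Ei24: gctgtttttttAGCACTTgccagctcctgt
Ccng1: gttactgaaatAGCACTTctttaaattacg
Cdkn1a: cagacctgaatAGCACTTtggaaaaatgag
Cdkn1a: aggcatatctaGGCACTTgccccacagctc
Cdkn1a: gtgggtgtcaaAGCACTTAgtgggtctgac

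The seeds of miR-291a-3p, miR-294-3p and miR-295-3p are identical, miR-290a-3p and miR-291b-3p differ from them in the last seed base, and the seed of miR-293-3p is shifted. The Ei24 match lies at chr9:36779889-36779895 and starts at base 212 of a 3' UTR of 948 bases. The Ccng1 match lies at chr11:40750553-40750559 and starts at base 309 of 2316 bases. Cdkn1a, the p21 gene described with the further targets, is shown beside them with its 3 matches, at chr17:29099828-29099834, chr17:29100149-29100155 and chr17:29100500-29100507. Ei24 was higher in KO, and Ccng1 was not called. In the lists described below, 11 of 33 further targets (33.3%) and 6 of 26 p53 regulators (23.1%) held a match, against 25.8% of tested genes. Of these, Trp53inp1 (-1.20) and Chek2 (-0.95) were called, both lower in KO, and the others, Cdkn1a among them, were not called. The 3' UTRs of Gdf15 (150 bases) and Bax (224 bases) are short, which leaves little room for a match. A match is a description and not a measured site.

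The next genes act in the mitochondrial pathway of cell death, where BH3-only proteins release the pore-forming protein BAX. Pmaip1 (ENSMUSG00000024521), which encodes the BH3-only protein NOXA, lies at 66458533 to 66465565 on the plus strand of chromosome 18. It was at 20.9 and 35.1 CPM in WT libraries 1 and 2 and at 6.44 and 8.41 CPM in KO libraries 1 and 2. The WT libraries differed, with library 2 the higher, and both KO libraries were far below them. Pmaip1 fell by 1.90 on the log2 scale (SE 0.31, edgeR adjusted p = 0.00546), or 3.74-fold, and was called with each library left out (-2.22 to -1.51).

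Bbc3 (ENSMUSG00000002083, chromosome 7, 16308393 to 16318205, plus strand), which encodes the BH3-only protein PUMA, was at 80.2 and 63.1 CPM in WT libraries 1 and 2 and at 59.5 and 45.6 CPM in KO libraries 1 and 2. The groups did not overlap, but KO library 1 was close to WT library 2. The log2 fold change of -0.45 (SE 0.21, edgeR adjusted p = 0.19) did not pass the test. Leaving out WT library 1 or KO library 2 brought it to -0.25 or -0.27, and leaving out WT library 2 to -0.63, which passed (edgeR adjusted p = 0.0385).

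Bax (ENSMUSG00000003873, chromosome 7, 45461697 to 45466898, minus strand) was at 78.4 and 73.9 CPM in WT libraries 1 and 2 and at 33.4 and 55.2 CPM in KO libraries 1 and 2. Here the WT libraries were alike and the KO libraries differed, with both below WT. Bax gave -0.78 (SE 0.24, edgeR adjusted p = 0.0617), short of the threshold. It passed when WT library 2 (-0.84, edgeR adjusted p = 0.0216) or KO library 2 (-1.18, edgeR adjusted p = 0.0195) was dropped, and KO library 1 dropped gave -0.45. The DESeq2 test called it (adjusted p = 0.0295), as did edgeR with no filter on low counts (adjusted p = 0.00309).

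Perp (ENSMUSG00000019851, chromosome 10, 18845020 to 18857073, plus strand) encodes a membrane protein that acts in p53-dependent cell death and in desmosomes. It was at 37.7 and 19.3 CPM in WT libraries 1 and 2 and at 19.6 and 26.3 CPM in KO libraries 1 and 2. WT library 2 was the lowest of the 4 and WT library 1 the highest, so the groups overlapped. Perp gave -0.32 (SE 0.32, edgeR adjusted p = 0.566). The sign turned when WT library 1 was left out (0.26), and the gene was called lower when WT library 2 was (-0.73, edgeR adjusted p = 0.0416).

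**Figure D2:**
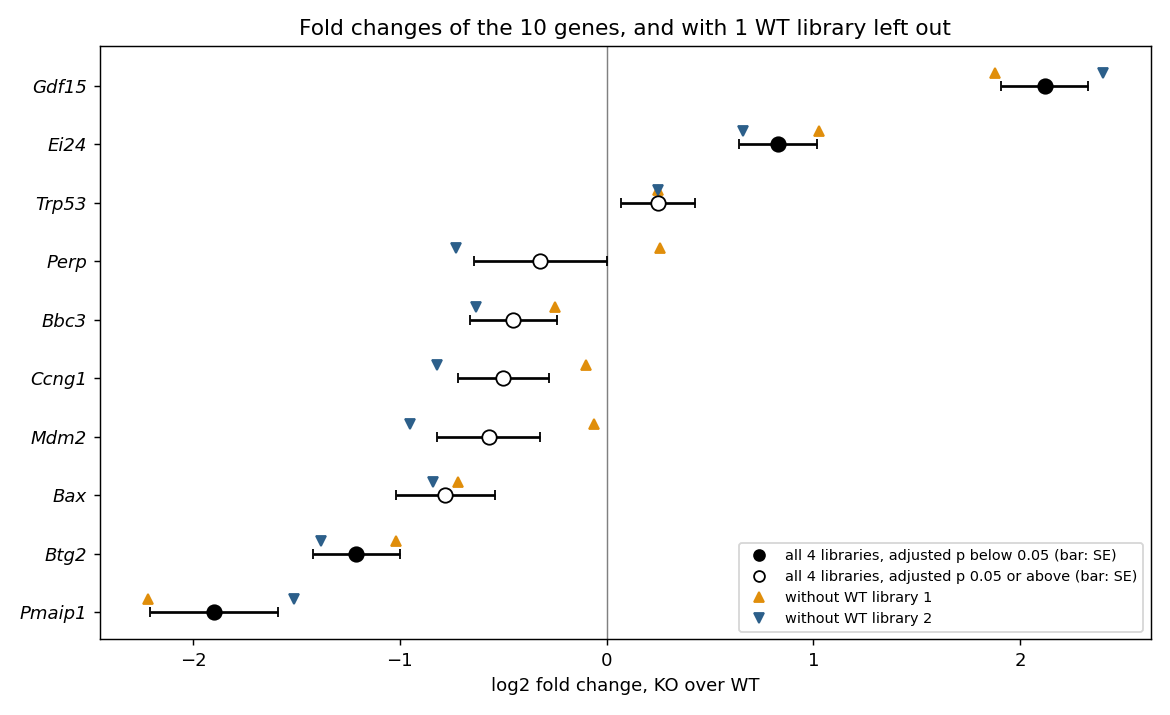
Log2 fold change, KO over WT (horizontal axis), of the 10 genes with all 4 libraries (circles, bars are the SE, filled where the adjusted p is below 0.05) and with WT library 1 or WT library 2 left out (triangles). Mdm2, Ccng1 and Perp lie near or above 0 without WT library 1 and between -0.95 and -0.73 without WT library 2. Of the 10 genes only Perp changes sign.

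The spread between the WT libraries was then described over the p53 response. Of the 10 genes, Perp (1.99-fold), Mdm2 (1.86-fold) and Ccng1 (1.64-fold) were at least 1.5-fold higher in WT library 1 than in WT library 2, and Pmaip1 was 1.63-fold lower. A further 34 targets of p53 came from a list of genes known to be induced by it, of which 33 were tested. Among these, 9 were at least 1.5-fold higher in WT library 1 and 1, Ddit4, was lower. For the 43 tested genes together that is 12 higher (27.9%) and 2 lower (4.65%), against 11.5% and 13.7% of all tested genes. The largest ratios were those of the death receptor gene Eda2r (2.62-fold), the polo-like kinase gene Plk2 (2.58-fold) and Ddit4l, an inhibitor of mTOR signalling (2.55-fold). Between the KO libraries 1 of the 43 genes was at least 1.5-fold higher in library 1 and 1 lower, against 8.06% and 9.15% of all tested genes. Trp53 had nearly the same level in both WT libraries. The WT libraries also differed outside this pathway. The median log2 ratio of WT library 1 over WT library 2 was -0.27 on chromosome 1 and 0.19 on chromosome 15. For KO library 1 over KO library 2 it was -0.03 and -0.01. On chromosome 1 the KO libraries had medians of 0.37 and 0.46 over WT library 1, and of 0.16 and 0.18 over WT library 2. These are comparisons of single libraries, with no test, and the labels give no batch. How these shifts bear on the p53 genes was not tested.

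**Figure D3:**
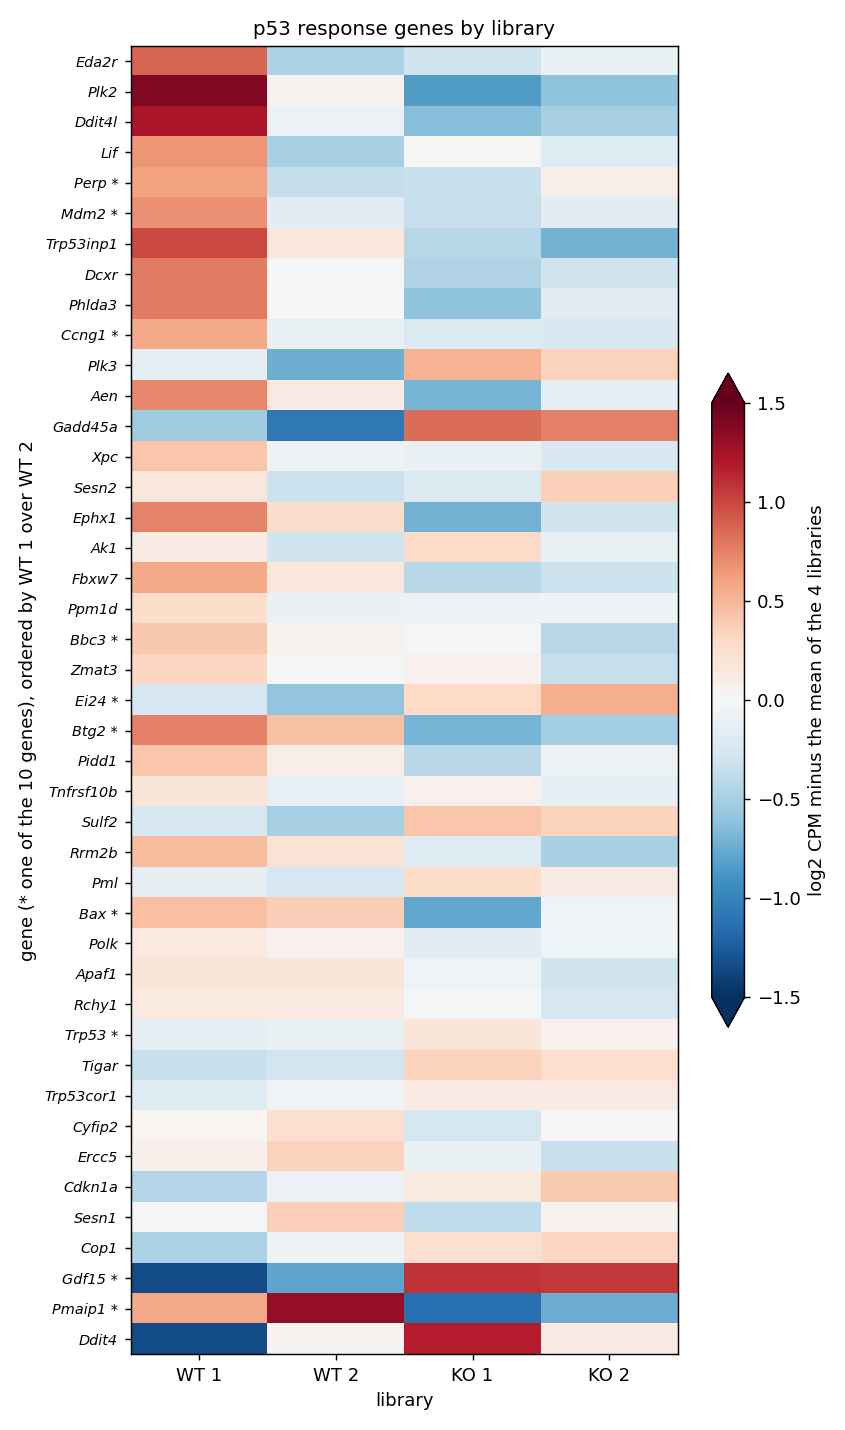
Log2 CPM of the 43 tested genes (rows, the 10 genes marked with an asterisk) in each library (columns), minus the gene's mean over the 4 libraries, with red above and blue below that mean. Rows are ordered by WT library 1 over WT library 2, so the order itself is a description; Plk2, Ddit4l and Trp53inp1 are high in WT library 1, while Gdf15 and Gadd45a are high in both KO libraries.

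Of the 33 further targets tested in KO against WT, 3 were higher (9.09%) and 3 lower (9.09%), next to 7.42% and 4.96% of all tested genes. Both KO libraries lay above both WT libraries for 9 of the 33 (27.3%) and below them for 16 (48.5%), against 29.2% and 28.8% of all tested genes, and 22 of the 33 fold changes were negative. The list median was -0.28, and dropping WT library 1 or WT library 2 gave -0.08 or -0.33. With WT library 2 left out more genes were called, in this list and over all tested genes, and the spread in that fit comes from the KO pair alone.

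Gadd45a, a growth arrest gene that also responds to other stresses, rose most in this list. It was at 58.7 and 40.4 CPM in WT libraries 1 and 2 and at 151.3 and 143.3 CPM in KO libraries 1 and 2, with no overlap. The log2 fold change was 1.57 (SE 0.21, edgeR adjusted p = 0.0021), and the call held with each library left out. Tigar, which encodes a fructose bisphosphatase that lowers glycolytic flux, rose by 0.60 (SE 0.15, edgeR adjusted p = 0.0336), and the extracellular sulfatase gene Sulf2 by 0.74 (SE 0.17, edgeR adjusted p = 0.0216). Both lost their calls without either KO library, with 0.56 and 0.65 for Tigar and 0.71 and 0.78 for Sulf2. The 3' end of Sulf2 overlaps an exon of Ncoa3 on the opposite strand, and how the counting treated strand is not known here.

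Trp53inp1, a p53 cofactor that acts in cell death and autophagy, was at 226.7 and 127.3 CPM in WT libraries 1 and 2 and at 85.1 and 69.9 CPM in KO libraries 1 and 2. The groups did not overlap although WT library 1 was far above WT library 2. It fell by 1.20 (SE 0.26, edgeR adjusted p = 0.0188), and its value was -0.70 when WT library 1 was dropped (adjusted p = 0.0163) and -1.57 when WT library 2 was. Dropping KO library 2 gave -1.06, and the call was lost (adjusted p = 0.0516). Plk2 was at 29.1 and 11.5 CPM in WT and at 6.21 and 7.31 CPM in KO, and was 3.03-fold lower in KO (SE 0.42 on the log2 scale, edgeR adjusted p = 0.0372). The call was lost when WT library 1 (-0.75, adjusted p = 0.171) or KO library 1 (-1.48, adjusted p = 0.0772) was left out, and the log2 value was -2.13 when WT library 2 was. The call was also lost when genes under a mean of 10 CPM were left out of the test (-1.62, adjusted p = 0.0546). Fbxw7, the substrate receptor of a ubiquitin ligase for cyclin E and MYC, fell by 0.75 (SE 0.18, edgeR adjusted p = 0.0298) and of the fits with 1 library left out was called only in the one that lacks WT library 2 (-0.95). The others gave -0.52 (WT library 1 left out) and -0.70 and -0.79 (KO library 1 or 2 left out).

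Cdkn1a, which encodes the cell cycle inhibitor p21 and is the best known p53 target, was at 76.2 and 97.6 CPM in WT libraries 1 and 2 and at 114.1 and 136.2 CPM in KO libraries 1 and 2. Both KO libraries were above both WT libraries, and WT library 2 was above WT library 1. The log2 fold change of 0.53 (SE 0.18, edgeR adjusted p = 0.0827) did not pass the test. It passed when WT library 2 was left out (0.70, adjusted p = 0.0143) and with no filter on low counts (0.54, adjusted p = 0.04). Zmat3, an RNA-binding protein gene with a strong dependence on p53 in other cells, gave -0.28 (SE 0.19, edgeR adjusted p = 0.392). Leaving out 1 library moved it between -0.49 (KO library 1) and -0.08 (WT library 1 or KO library 2).

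**Figure D4:**
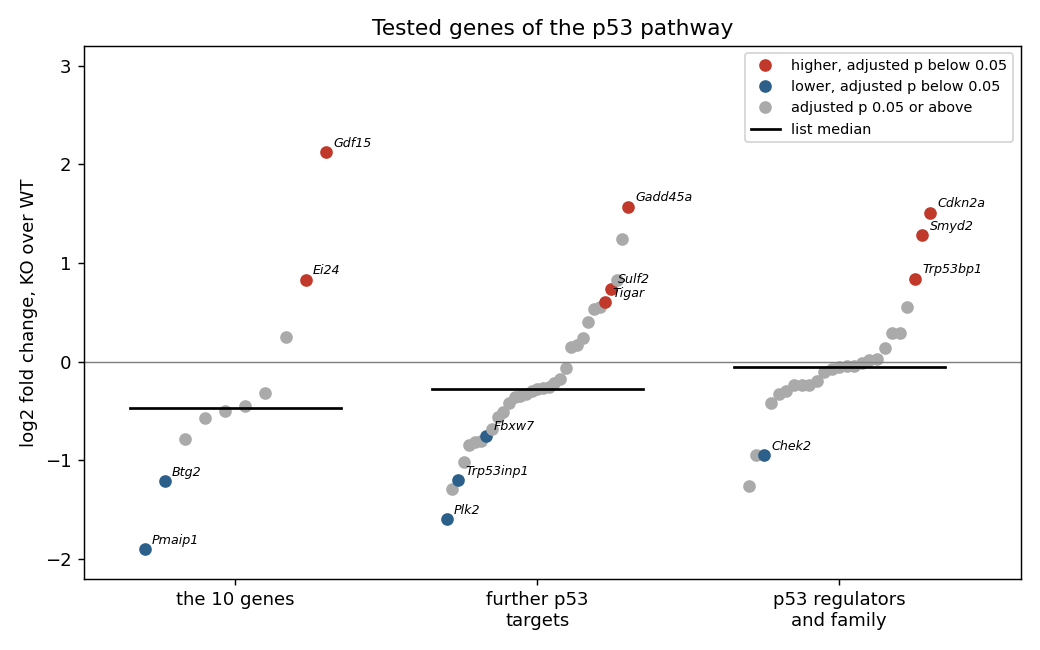
Log2 fold change, KO over WT (vertical axis), of the tested genes in the set of 10, the list of further p53 targets and the list of p53 regulators and family members, with called genes named and coloured and list medians as black lines. Each list holds called genes on both sides of 0, and the medians are -0.48, -0.28 and -0.05.

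Genes that act on p53 formed a last list of 28, of which 27 were named in the table and 25 tested. In KO 3 were higher and 1 was lower (12% and 4%, next to 7.42% and 4.96% of all tested genes), and the median was -0.05. Cdkn2a was at 12 and 13.5 CPM in WT libraries 1 and 2 and at 33.7 and 38.8 CPM in KO libraries 1 and 2. The KO libraries were both well above WT, with a log2 fold change of 1.51 (SE 0.22, edgeR adjusted p = 0.00333), called with each library left out. The locus gives p19ARF, an inhibitor of MDM2, and the CDK inhibitor p16INK4a from transcripts with a common 3' end, so these tags do not separate them.

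Smyd2, a lysine methyltransferase that restrains p53, rose by 1.28 (SE 0.21, edgeR adjusted p = 0.00646), from 14.4 and 18.3 CPM in WT to 38.6 and 40.5 CPM in KO, and was called with each library left out. It lies on chromosome 1, and relative to that chromosome's median it was at 1.01. Trp53bp1, which encodes the repair factor 53BP1, rose by 0.84 (SE 0.18, edgeR adjusted p = 0.0186) and was not called when KO library 1 (0.88) or KO library 2 (0.80) was dropped. Chek2, a kinase that stabilizes p53 after DNA damage, was at 76.7 and 92.0 CPM in WT and at 45.2 and 41.6 CPM in KO. It fell by 0.95 (SE 0.17, edgeR adjusted p = 0.0097), and without KO library 2 the call was lost (-0.89, adjusted p = 0.0793).

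Mdm4, the MDM2 partner that blocks the p53 activation domain, was at 141.6 and 187.1 CPM in WT and at 141.9 and 136.3 CPM in KO, and its groups overlapped (-0.24, SE 0.17, edgeR adjusted p = 0.4). Dropping WT library 1 gave -0.41 and dropping WT library 2 gave -0.04, and relative to the median of chromosome 1 Mdm4 was at -0.50. Of the other genes of the p53 family, Trp63 held 2 counts in each KO library and 0 in each WT library, at or under a floor of 3 counts, and was not tested. Trp73, itself a p53 target, was at 9.13 CPM in WT library 1 and at 1.21, 2.75 and 1.61 CPM in WT library 2 and KO libraries 1 and 2. It stood out in that single library, as Mdm2 and Perp did, and its log2 fold change was -1.26 (SE 0.76, edgeR adjusted p = 0.32) with all libraries, 0.87 when WT library 1 was dropped and -2.07 when WT library 2 was (adjusted p = 0.00655). With no filter on low counts it passed the test (-1.26, edgeR adjusted p = 0.0493), although the WT libraries lay 6.91-fold apart.

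The promoters were then searched for the p53 half-site consensus, a motif of 10 bases that equals its own reverse complement, so a match counts for both strands. Windows from 250 bases before to 50 bases after the transcript start (RefSeq, GRCm38.p6) were found for 8 of the 10 genes. A match was present in 5 of the 8 genes, in 9 of 28 further targets (32.1%) and in 2 of 25 regulators (8%), against 9.55% of 27025 genes with a window. The stretches below show the match in capitals on the strand of the gene, because p53 is known to bind pairs of such half-sites.

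Trp53: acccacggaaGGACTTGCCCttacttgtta
Mdm2: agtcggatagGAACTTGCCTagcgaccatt
Ccng1: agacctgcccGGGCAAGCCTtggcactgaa
Ei24: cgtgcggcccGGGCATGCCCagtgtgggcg
Bax: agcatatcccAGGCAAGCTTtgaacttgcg
Cdkn1a: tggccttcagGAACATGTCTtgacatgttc

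The match starts 75 bases before the RefSeq start in Trp53 (stretch at chr11:69580274-69580303), 186 in Mdm2 (chr10:117710925-117710954), 185 in Ccng1 (chr11:40755452-40755481), 10 in Ei24 (chr9:36797325-36797354) and 201 in Bax (chr7:45467080-45467109). The Ei24 stretch lies inside the gene as GENCODE places it, with a start further upstream. For Cdkn1a, shown as the classical target, the match starts 51 bases before a RefSeq start (chr17:29090918-29090947), and another match lies 73 bases before that start. Of the 10 genes, those with a match were not called, apart from Ei24, which was higher in KO. Btg2 and Gdf15, which were called, had none in these windows. No match was found for Pmaip1, which was also called. Windows were found for only 8 of the 10 genes, so a gene without a match was not always searched. Among the further targets with a match, Gadd45a was higher in KO (1.57, edgeR adjusted p = 0.0021) and the others were not called. Neither were the 2 regulators with a match. A match is a description and not a measured binding site, and p53 sites in first introns, as in Mdm2, lie outside these windows.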

How the data were processed

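The values are raw counts by Ensembl identifier, deposited by the authors as 1 table of whole numbers with no normalization, for 4 QuantSeq 3' FWD libraries of poly(A) RNA, per the labels' protocols. The submitters' processing notes name Trim Galore and GRCm38. How reads were aligned and counted, and with which annotation and strand setting, is not given in the sources used here. Of 55421 identifiers, GENCODE vM21 named 55154, and the 267 without a name held 0.0118% of counts.

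Groups came from sample titles. KO was tested against WT with edgeR 4.0.16 in R 4.3.3 (quasi-likelihood F test, two-sided, TMM, filterByExpr, Benjamini-Hochberg over 14427 genes), with each SE taken as the size of the log2 fold change over the root of F. The biological coefficient of variation was 0.198. Ratios between 2 libraries of a group used log2 CPM with a prior count of 2. A floor of 3 counts is 0.236 to 0.302 CPM, for counting error only, since reads carry no molecular identifiers. Alternatives were DESeq2 1.42.0 (size factors, or its test), library totals, no filter, a mean of at least 10 CPM, the replicate number as a block, chromosome medians subtracted, and each library left out.

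On simulated counts for KO against WT (14411 genes tested) the test found 3.33% of the genes given a 1.5-fold change, 24.7% at 2-fold and 98.5% at 4-fold. It also called 0.0141% of genes given no change. In the simulation all genes had the same biological coefficient of variation, and 60, 73 and 67 genes were changed at these folds. In the measured counts the spread differs by gene and 1786 genes were called, so the share recovered there may differ.

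The 10 genes and the lists were chosen with earlier results of these data known. Named genes were the 10, the called genes of the lists (up to 8 per list), and Cdkn1a, Mdm4, Trp63, Trp73, Zmat3 and Cdkn2a. Eda2r, Ddit4l, Ddit4, Crebbp and the markers Fgf4, Klf4, Utf1, Vim and Tfap2c were named after their values were seen. Sequences are from RefSeq (GRCm38.p6) and GENCODE transcripts.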

Additional observations from a re-analysis of the deposited data

How the results depend on the processing

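Gdf15, Pmaip1 and Btg2 kept their direction and their call under each alternative with a test, and Btg2 gave -1.48 with its chromosome's median subtracted. With no filter on low counts Mdm2 (-0.57), Ccng1 (-0.50) and Bax (-0.78) passed the test (edgeR adjusted p of 0.012, 0.0375 and 0.00309), so 5 of the 10 genes were lower in place of 2, while 6 further targets were higher and 6 lower in place of 3 and 3, and 2 regulators lower in place of 1. That fit gave Ddit4, whose WT libraries lay 2.54-fold apart, an edgeR adjusted p of 5.86e-11. Its p-values can thus miss the spread of a single gene, and a call made only there is weak. The DESeq2 test called Bax as well (-0.78). The replicate numbers did not pair the libraries (the differences KO 1 minus KO 2 and WT 1 minus WT 2 had a correlation of -0.0703 over tested genes), and the replicate block left Ei24 at 0.84 (edgeR adjusted p = 0.0611), 1 of the 10 genes higher, and 1 further target lower, as Plk2 (-1.46) and Fbxw7 (-0.73) lost their calls, and so did Tigar (0.60) among the higher ones (edgeR adjusted p of 0.0918, 0.0657 and 0.0658). Over all tested genes 638 were higher and 370 lower with the replicate block, and 636 and 391 at a mean of at least 10 CPM, against 1071 and 715. Without a filter, where more genes were tested, 1590 were higher and 1193 lower, so calls rose over the whole table too.

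With 1 library left out, the ranges were -0.95 to -0.06 for Mdm2, 0.66 to 1.03 for Ei24, -0.82 to -0.10 for Ccng1, -0.65 to -0.25 for Bbc3, -1.18 to -0.45 for Bax and -0.73 to 0.26 for Perp. Between 1 and 2 of the 10 genes were higher and between 2 and 7 lower. Of the further targets 1 to 6 were higher and 1 to 9 lower, and of the regulators 0 to 2 were lower. The medians ranged from -0.77 to -0.08 for the 10 genes, from -0.33 to -0.08 for further targets and from -0.12 to 0.04 for regulators, which turned to 0.04 without WT library 1. Trp73 ranged from -2.07 to 0.87 and turned to 0.87 without WT library 1. Over all tested genes 586 were higher and 285 lower without KO library 1, against 556 and 319 when KO library 2 was the one left out. Calls rose over all tested genes too, in both directions, when either WT library was left out. A larger count in such a fit thus does not by itself set the p53 lists apart. A lone library is assumed to vary like the pair of the other group. The number of the 10 genes with a 7-base seed match was 2 with the shortest, the longest or any annotated 3' UTR, and also with GCACTT alone. In the simulation a change of 1.5-fold was seldom recovered at this number of libraries, so a gene that did not pass is not shown to be unchanged.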

Other observations

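Ddit4, which encodes an inhibitor of mTOR signalling that responds to p53, to hypoxia and to the integrated stress response, differed within both groups. It was at 60.4 and 158.3 CPM in WT libraries 1 and 2 and at 347.2 and 166.6 CPM in KO libraries 1 and 2, and its log2 fold change was 1.24 (SE 0.42, edgeR adjusted p = 0.0836). With 1 library left out it ranged from 0.63 (without KO library 1) and 0.72 (without WT library 1) to 1.68 and 2.07 (without KO library 2 or WT library 2), where it passed the test (edgeR adjusted p of 0.00302 and 0.000249). With no filter on low counts it also passed (1.25, edgeR adjusted p = 5.86e-11), a value that does not reflect its spread within both groups. It did not pass in the DESeq2 test (1.25, adjusted p = 0.375) or with the replicate block (1.29, edgeR adjusted p = 0.188). Nor did it at a mean of at least 10 CPM, with DESeq2 size factors or with library totals (edgeR adjusted p of 0.127, 0.0886 and 0.101). KO library 2 and WT library 2 were nearly equal. Its order between the WT libraries was that of Gdf15 and Pmaip1, with WT library 2 above WT library 1, and not that of Mdm2. Crebbp, an acetyltransferase gene of the regulator list, was at 0.55 (SE 0.16, edgeR adjusted p = 0.0501). It passed with library totals (edgeR adjusted p = 0.0482), in the DESeq2 test (adjusted p = 0.0397) and with no filter (edgeR adjusted p = 0.0147). It did not pass with DESeq2 size factors, at a mean of at least 10 CPM or with the replicate block (edgeR adjusted p of 0.0541, 0.0622 and 0.0912). With 1 library left out Crebbp ranged from 0.44 to 0.66. Both were chosen after their values were seen.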
